A study of Mus musculus with 30 samples.

Results

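Dlg3, Cask and Adam22 are neuronal genes whose products work at and around synapses, and every listed splicing event of these 3 genes was taken from the 4 splicing tables of the series by gene symbol. They made up 31 of 6491 listed rows, or 20 of 4923 distinct events: 12 in Dlg3, 2 in Cask and 6 in Adam22. The study asked how loss of Nova2, which encodes a splicing regulator of neurons, changes RNA in different classes of mouse neuron. In the first class, cortical cells were sorted at embryonic day 18.5 from Nova2 conditional knockout (cKO) mice carrying Emx1-Cre, and from wild-type Emx1-Cre controls. In the second class, the sort was from Nova2 cKO mice carrying Gad2-Cre, and from wild-type Gad2-Cre controls, at the same age. The third class was the dissected Purkinje cell layer of the cerebellum at postnatal day 28, from Nova2 cKO mice with Pcp2-Cre and wild-type Pcp2-Cre controls. All 18 libraries, 3 in each of 6 groups, came from C57BL/6J mice and had ribosomal RNA removed. The other 12 of the 30 samples were not analysed here. Emx1-Cre is known to act in the progenitors of excitatory cortical neurons, which also give rise to glia, and Gad2-Cre acts in inhibitory neurons. The tables hold splicing levels and no expression levels, so neither the class markers nor Nova2 loss itself could be checked in them.

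Dlg3 and Cask belong to the membrane-associated guanylate kinases (MAGUKs), scaffold proteins built from PDZ, SH3 and guanylate kinase-like domains that hold receptors and adhesion proteins in place at the membrane. Dlg3, also called SAP102, binds the tails of NMDA-type glutamate receptors and is the prominent family member at young synapses, while Cask binds neurexins on the presynaptic side and forms a complex with Apba1 and Lin7 proteins. Adam22 is a membrane protein of the ADAM family without protease activity; it is the receptor of the secreted protein LGI1, and its tail binds MAGUKs such as PSD-95. NOVA proteins are known to bind clusters of a short RNA motif, a CA pair with a pyrimidine on each side.

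The inclusion levels given here run from 0 to 1 and are the authors' estimate of the fraction of an event that is its first-named isoform. That isoform can share splice junctions with other forms of the RNA, so a level need not be its share of the RNA. There is 1 pooled level for each group of 3 libraries. Levels therefore come without a spread between replicates, and library depths are unknown. The authors listed an event when its false discovery rate (FDR) was at most 0.05, its levels differed by at least 0.1 and its coverage, a measure not defined in the sources used here, was at least 20. Because the libraries are bulk RNA, a shift in the share of RNA coming from different cells and a shift of splicing within a cell cannot be told apart, and the labels do not say whether the 3 libraries of a group came from separate animals.

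The exons the results turn on are shown first, as GENCODE M21 gives them on mouse build mm10, each written 5′ to 3′ on the transcribed strand. Dlg3 (ENSMUSG00000000881) lies on the plus strand of chromosome X, and its changes centred on a coding exon of 100 nt at chrX:100808053-100808152, the next exon of 46 nt at chrX:100809862-100809907, and a coding exon of 42 nt at chrX:100811502-100811543. Cask (ENSMUSG00000031012) lies on the minus strand of chromosome X, with a coding exon of 69 nt at chrX:13552373-13552441 followed by one of 36 nt at chrX:13550947-13550982. Adam22 (ENSMUSG00000040537) lies on the minus strand of chromosome 5. One of its coding exons ends at either of a pair of 5′ splice sites, which gives a form of 108 nt at chr5:8095073-8095180 or one of 195 nt at chr5:8094986-8095180. A separate annotated exon of 62 nt, at chr5:8094986-8095047, is the last stretch of the 195-nt form and shares its 5′ splice site. In the Dlg3 and Cask exons and in the 62-nt Adam22 exon, capitals mark every CA with a C or T on each side, on the transcribed strand, overlapping matches included. In the 195-nt Adam22 exon, capitals mark the 87 nt that the 108-nt form lacks.
Dlg3 100-nt exon: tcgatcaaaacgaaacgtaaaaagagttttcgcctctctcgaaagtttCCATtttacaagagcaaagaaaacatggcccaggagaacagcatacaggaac
Dlg3 46-nt exon: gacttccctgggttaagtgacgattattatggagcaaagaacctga
Dlg3 42-nt exon: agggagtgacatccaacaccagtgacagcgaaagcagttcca
Cask 69-nt exon: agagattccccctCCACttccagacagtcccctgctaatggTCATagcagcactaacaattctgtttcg
Cask 36-nt exon: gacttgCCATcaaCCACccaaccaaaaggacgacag
Adam22 195-nt exon: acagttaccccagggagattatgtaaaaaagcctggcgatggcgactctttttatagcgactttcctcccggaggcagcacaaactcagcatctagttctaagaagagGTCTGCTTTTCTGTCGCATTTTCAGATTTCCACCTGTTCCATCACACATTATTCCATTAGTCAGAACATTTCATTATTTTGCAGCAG
Adam22 62-nt exon: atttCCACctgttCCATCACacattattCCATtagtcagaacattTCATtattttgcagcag

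These exons differ in how they affect the reading frame. The 100-nt Dlg3 exon is 54 nt longer than the 46-nt exon, which is 18 codons, so the choice between them keeps the frame. The 42-nt Dlg3 exon, both Cask exons and the 87-nt extension of Adam22 are also whole numbers of codons (14, 12, 23 and 29). The 62-nt Adam22 exon is not, since it leaves a remainder of 2 nt after 20 codons. Neither is the 100-nt or the 46-nt Dlg3 exon by itself, each with a remainder of 1 nt. Adding or skipping either of them alone, or exchanging it for the 42-nt exon, thus does not keep the frame. The motif searched was present 5 times in the 62-nt Adam22 exon, and 0.288% of 694 internal exons of that length in GENCODE coding transcripts held as many. All 5 of those matches lie in the 87-nt extension, and the 108-nt form holds 0. The whole 195-nt form thus holds the same 5, as many as 30.9% of 515 exons of its length. The 36-nt Cask exon held 2 matches, as many as 8.45% of 485 exons of its length, and the 69-nt Cask exon held 2, as many as 26.2% of 1087. The 100-nt Dlg3 exon held 1, which 75.5% of 1262 exons of its length reached, and the 46-nt and 42-nt exons held 0. On the opposite strand the 62-nt Adam22 and 36-nt Cask exons held 0 each. There the 46-nt and 42-nt Dlg3 exons held 2 each, and the 100-nt Dlg3 exon, the 69-nt Cask exon and the 108-nt and 195-nt Adam22 forms held 1 each. These counts describe letters in exons only, since intron sequence was not used here.

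**Figure D1:**
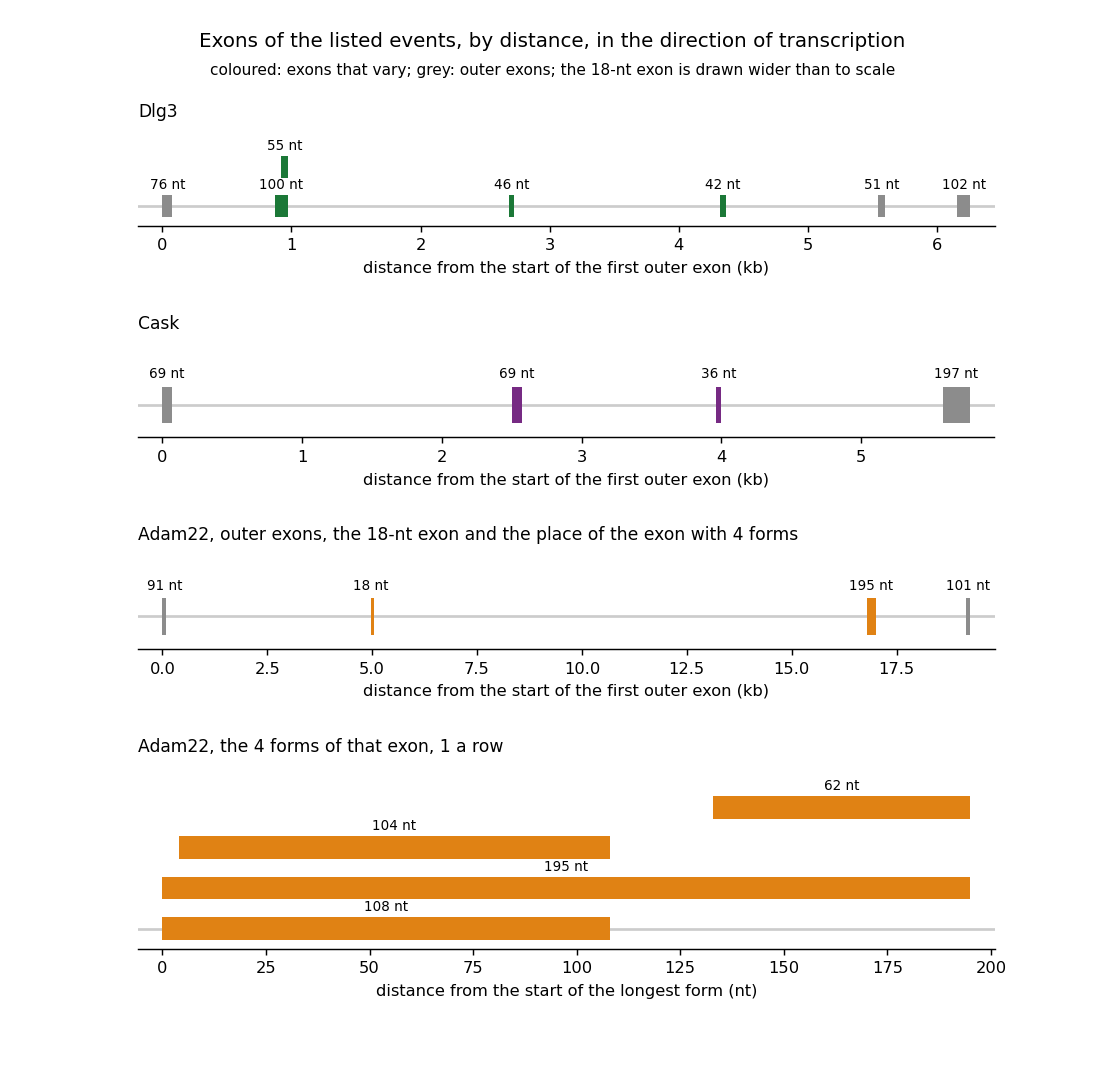
Exons of the listed Dlg3, Cask and Adam22 events, placed by distance in kb from the first outer exon in the direction of transcription, with the Adam22 exon of several forms enlarged in nt at the bottom. Coloured boxes are exons that vary, grey boxes are outer exons, and the 62-nt Adam22 exon ends where the 195-nt form ends.

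Dlg3 changed over a stretch of neighbouring exons. In Emx1-Cre neurons 11 Dlg3 events were listed, and in Gad2-Cre neurons 5. At least as many events were listed for 3.16% of the 1044 gene symbols of the Emx1-Cre table, and for 10.5% of the 880 symbols of the other, and the median symbol had 1. The Dlg3 events overlap and share splice junctions, so they are several views of 1 region and not separate observations.

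The 100-nt Dlg3 exon had low levels in controls and high levels in Emx1-Cre cKO neurons. As a cassette between the 76-nt and 46-nt exons, it had an inclusion level of 0.865 in Emx1-Cre cKO neurons and 0.0256 in Emx1-Cre controls in the authors' deposited table (FDR 1.72e-34, coverage 80). In Gad2-Cre neurons the authors' deposited table gave it 0.622 in cKO and 0.0947 in controls (FDR 2.45e-10, coverage 52). It thus rose in both classes, past the authors' thresholds, and the cKO levels of the classes lay 0.243 apart. RNA that joins the 100-nt exon to an exon other than the 46-nt exon shares the junction upstream of the 100-nt exon. So these cassette levels are not the share of RNA that holds the 100-nt and 46-nt exons together.

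Set against the 46-nt exon as its alternative, with the 51-nt exon downstream, the 100-nt exon had a level of 0.910 in Emx1-Cre cKO and 0.0354 in controls by the authors' deposited table. This difference of 0.87 ranked 10 by size among the 2682 events of that table. The same pair stood at 0.656 in Gad2-Cre cKO and 0.142 in Gad2-Cre controls by the authors' deposited table, a difference of 0.51 that ranked 125 of 1970. With the 42-nt exon downstream, the levels of the 100-nt exon against the 46-nt exon in the authors' deposited table were 0.812 in cKO and 0.0811 in controls for Emx1-Cre, and 0.625 in cKO and 0.117 in controls for Gad2-Cre. So the exchange of the 46-nt exon for the 100-nt exon was listed in the same direction in each of these settings.

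In Emx1-Cre neurons the 42-nt exon rose as a cassette and against the 46-nt exon. As a cassette between the 46-nt and 51-nt exons, it had a level of 0.978 in cKO and 0.528 in controls in the authors' deposited table (FDR 1.24e-13). Where it competed with the 46-nt exon, between the 76-nt and 51-nt exons, the level of the 46-nt exon was 0.104 in cKO and 0.690 in controls by the authors' deposited table. Downstream of the 100-nt exon the same competition gave the 46-nt exon 0.138 in cKO and 0.384 in controls, also the authors' values. The 46-nt exon as a cassette between the 100-nt and 42-nt exons fell to 0.328 in cKO, against 0.722 in controls, in the authors' deposited table. Of the 11 Emx1-Cre events, 8 had a higher level in cKO, each with the 100-nt exon, its shorter form or the 42-nt exon as the first-named isoform, and 3 had a lower level, each with the 46-nt exon named first.

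A pair of Emx1-Cre events set the 42-nt exon against the 51-nt exon or a form that starts where it does. Between the 46-nt and 102-nt exons its level was 0.949 in cKO and 0.440 in controls, and between the 100-nt and 102-nt exons 0.270 in cKO and 0.0658 in controls, by the authors' deposited table. The first of these had the lowest coverage of all Dlg3 events, 22.1, and the second the highest FDR, 0.0307. In the first, the event name tags the other form's junction to the 102-nt exon differently from that of the 51-nt exon. So only the start of that form is known to be that of the 51-nt exon. Against the 42-nt exon, the 100-nt exon had 0.540 in cKO and 0.0755 in controls for Emx1-Cre, and 0.579 in cKO and 0.233 in controls for Gad2-Cre, in the authors' deposited tables.

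A shorter form of the 100-nt exon, its last 55 nt at chrX:100808098-100808152, is not a GENCODE exon but was listed in both classes. In Emx1-Cre neurons it was listed against the 46-nt exon, at 0.578 in cKO and 0.0467 in controls in the authors' deposited table. In Gad2-Cre neurons it was listed as a cassette, at 0.255 in cKO and at 0 in controls in the authors' deposited table, with a coverage of 26. These are different events, so the levels are not compared between classes. The 55-nt form shares its 5′ splice site, and the junction from it, with the 100-nt exon. So these levels are not the share of the 55-nt form itself.

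Among annotated coding Dlg3 transcripts that hold any of these exons, 1 has the 100-nt and 42-nt exons together, 2 have the 46-nt exon alone and 1 has the 46-nt and 42-nt exons. The listed events compare these exons locally and do not measure whole transcripts. In Emx1-Cre neurons the level of the 42-nt exon also rose in its cassette event with the 46-nt exon upstream, as given above. RNA with the 100-nt and 42-nt exons shares the junction downstream of the 42-nt exon. So that level need not show a rise of the 42-nt exon in RNA that holds the 46-nt exon. In Gad2-Cre neurons the only listed event with the 42-nt exon as an isoform was its pair with the 100-nt exon, in which the 42-nt exon had 0.421 in cKO and 0.767 in controls, computed from the authors' deposited table.

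Cask lost an exon in both classes of cKO neurons. The cassette event of the 36-nt exon has the alternative 69-nt exon as its upstream neighbour. RNA with the 36-nt exon but without the 69-nt exon shares the junction downstream of the 36-nt exon. So the level of this event need not be the inclusion of the 36-nt exon within RNA that holds the 69-nt exon. The 36-nt exon had an inclusion level of 0.212 in Emx1-Cre cKO and 0.622 in Emx1-Cre controls in the authors' deposited table (FDR 6.15e-11, coverage 257). In Gad2-Cre neurons its level was 0.190 in cKO and 0.880 in controls in the authors' deposited table (FDR 2.47e-35, coverage 179). The cKO levels of the classes lay 0.0220 apart, and the control levels 0.257 apart. The difference of 0.69 in Gad2-Cre neurons ranked 23 of 1970 by size, and that of 0.41 in Emx1-Cre neurons ranked 335 of 2682.

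The control levels of the 36-nt exon were themselves compared by the authors. Their deposited table of controls gave 0.622 in Emx1-Cre and 0.880 in Gad2-Cre neurons, a difference of -0.26 (FDR 1.52e-05, coverage 78.3). It was the only event of Dlg3, Cask or Adam22 listed between the controls, out of 1236 events.

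The share of the 69-nt Cask exon against the 36-nt exon rose. This share moves up whenever the 36-nt exon is lost, and no listed event measures inclusion of the 69-nt exon by itself. As this share, the 69-nt exon had a level of 0.863 in Emx1-Cre cKO and 0.682 in controls in the authors' deposited table (FDR 0.000794). In Gad2-Cre neurons the authors' deposited table gave 0.914 in cKO and 0.469 in controls (FDR 2.52e-16). In Gad2-Cre controls the level was thus near the middle of its range, and in both kinds of cKO neuron it was higher. RNA with both exons shares junctions with both forms, so this level is not the share of RNA with only 1 of them. Annotated coding transcripts of Cask that hold either exon have the 36-nt exon alone (2 transcripts), the 69-nt exon alone (1) or both (1). Other coding transcripts of Cask hold neither. Cask coverage, from 179 to 257 in the cKO tables, was above the medians of 71 and 64.0 of all events in them, so these levels rest on more reads than those of the other genes if coverage counts reads.

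**Figure D2:**
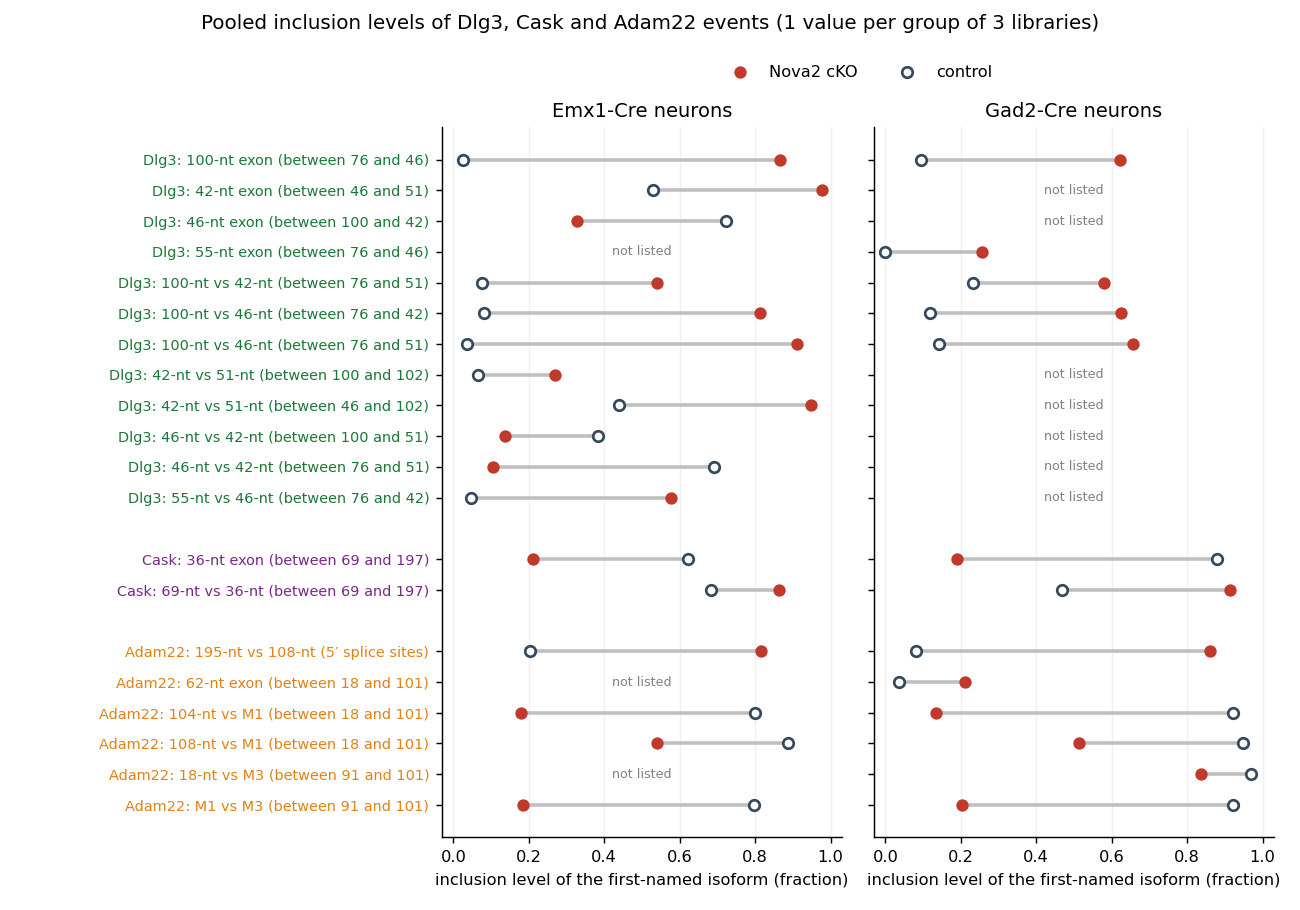
Pooled inclusion levels, as fractions, of the 20 events of Dlg3, Cask and Adam22 in Emx1-Cre and Gad2-Cre neurons, with filled points for cKO, open points for controls and lengths in nt of the outer exons in brackets. The 100-nt Dlg3 exon sits at 0.865 in Emx1-Cre cKO against 0.0256 in controls, and the 36-nt Cask exon at 0.190 in Gad2-Cre cKO against 0.880 in controls. For the Dlg3 pair of 42-nt and 51-nt exons between the 46-nt and 102-nt exons, only the start of the second form is known.

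Adam22 switched its 5′ splice site in cKO neurons of both classes. The level of the site at the end of the 195-nt form was 0.815 in Emx1-Cre cKO and 0.203 in controls in the authors' deposited table (FDR 8.2e-12). In Gad2-Cre neurons it was 0.861 in cKO and 0.080 in controls in the authors' deposited table (FDR 1.45e-19). This level measures use of a splice site, which the 62-nt exon shares, and so is not the share of the 195-nt form itself. The site of the 108-nt form was the more used in both controls, and the other site in both kinds of cKO neuron. In Gad2-Cre neurons the difference of 0.78 ranked 5 of 1970 by size.

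Exclusive-exon events that name a short form of Adam22 first also had lower levels in cKO. They share junctions with the 5′ splice site event, so they are not separate observations. An event whose first-named isoform is a 104-nt form, at chr5:8095073-8095176 and not a GENCODE exon, had a level of 0.178 in Emx1-Cre cKO and 0.801 in controls by the authors' deposited table. In Gad2-Cre neurons its level was 0.135 in cKO and 0.922 in controls in the authors' deposited table, a difference that ranked 3 of 1970. The 104-nt form shares its 5′ splice site with the 108-nt form, so this level is not the share of the 104-nt form itself. The 108-nt form as the first-named isoform of another pair had 0.539 in Emx1-Cre cKO and 0.888 in controls, and 0.514 in Gad2-Cre cKO and 0.949 in controls, in the authors' deposited tables. The second isoforms of these pairs are not in the positional lists, and the only other annotated exon between their outer exons that does not overlap the first is the 62-nt exon. A further event with 4 isoforms between the 91-nt and 101-nt exons had its second isoform against its last at 0.184 in cKO and 0.796 in controls for Emx1-Cre, and at 0.204 in cKO and 0.920 in controls for Gad2-Cre, in the authors' deposited tables.

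A pair of Adam22 events was listed in Gad2-Cre neurons only. The 62-nt exon as a cassette had a level of 0.212 in cKO and 0.0364 in controls in the authors' deposited table (FDR 2.63e-07). The 18-nt exon at chr5:8107002-8107019, the first isoform of the event with 4 isoforms, had 0.836 in cKO and 0.970 in controls against the last in the authors' deposited table. An event that was not listed in Emx1-Cre neurons may have missed any of the authors' 3 thresholds, so these are not shown to differ between the classes. The 62-nt exon and the 195-nt form share the junction to the 101-nt exon, so their levels are not independent. Adam22 coverage was low, from 27.1 to 31.3 in Emx1-Cre neurons and from 35.1 to 36.1 in Gad2-Cre neurons.

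Across the 3 genes, differences were large for these tables. A difference of at least 0.5 was reached by 9 of the 17 events listed in Emx1-Cre neurons, where 7.87% of all events reached it, and by 7 of the 13 listed in Gad2-Cre neurons, where 7.51% did. By gene, these were 6 Dlg3 events, 0 Cask events and 3 Adam22 events for Emx1-Cre, and 3, 1 and 3 for Gad2-Cre. The counts are descriptions, since events of a gene overlap. In the Purkinje cell layer 0 of the 603 listed events were of Dlg3, Cask or Adam22, which says only that none passed the authors' thresholds there, in tissue of another age and region.

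The cortical classes were then compared event by event. Of the 20 distinct events, 10 were listed in both cortical cKO tables, 7 in Emx1-Cre neurons only, all of Dlg3, and 3 in Gad2-Cre neurons only, 1 of Dlg3 and 2 of Adam22. All 10 shared events had the same direction in both classes, as did 97.4% of all 823 shared events. The difference was larger in Emx1-Cre neurons for 4 of 4 shared Dlg3 events, and larger in Gad2-Cre neurons for 2 of 2 Cask events and 4 of 4 Adam22 events.

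**Figure D3:**
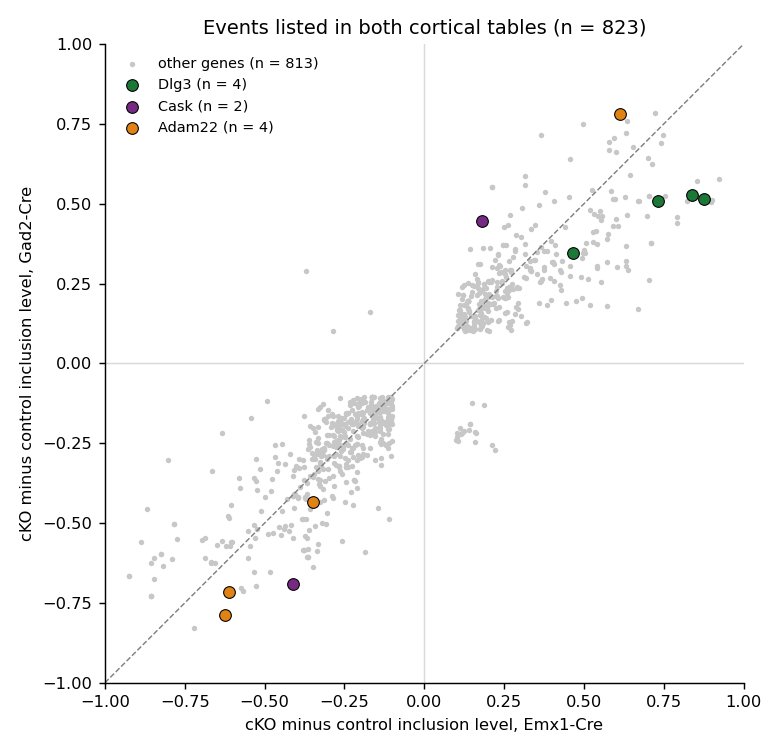
Difference of inclusion level, cKO minus control, in Emx1-Cre neurons (x axis) and Gad2-Cre neurons (y axis) for the 823 events listed in both tables, with those of Dlg3, Cask and Adam22 coloured and a dashed line of equal differences. The 4 Dlg3 events have the larger difference in Emx1-Cre neurons, and the 2 Cask and 4 Adam22 events have it in Gad2-Cre neurons.

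Whether a difference differed in size between the classes was tested by taking the authors' p-values as those of normal tests, from which the spread of each difference follows, with Benjamini-Hochberg adjustment over the 823 shared events. Of the 10 events, 3 passed an adjusted p of 0.05, where 12.9% of all shared events did. The loss of the 36-nt Cask exon was smaller in Emx1-Cre than in Gad2-Cre neurons, with a difference of differences of 0.28 ± 0.0792 (standard error; adjusted p = 0.00491). The gain of the 69-nt Cask exon over the 36-nt exon was likewise smaller in Emx1-Cre neurons, by -0.26 ± 0.0663 (standard error; adjusted p = 0.00124). The gain of the 100-nt Dlg3 cassette was larger in Emx1-Cre neurons, by 0.31 ± 0.101 (standard error; adjusted p = 0.0193).

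The other 7 shared events did not pass. For the 100-nt against the 46-nt Dlg3 exon with the 51-nt exon downstream, the difference of differences was 0.36 with a 95% interval from 0.0876 to 0.634 (adjusted p = 0.0677). The same pair with the 42-nt exon downstream had an interval from -0.0274 to 0.474 (adjusted p = 0.300), and the 100-nt against the 42-nt exon one from -0.197 to 0.433 (adjusted p = 0.734). For the Adam22 5′ splice site the interval ran from -0.394 to 0.0557 (adjusted p = 0.406), and the other Adam22 events had adjusted p from 0.689 to 0.812. These intervals leave room for class differences of the size seen in Cask. Exclusive-exon events of a gene often carry 1 p-value in common, as 7 of 12 of these genes' exclusive events did for Emx1-Cre neurons and 5 of 8 for Gad2-Cre neurons, so the spreads derived for them are rough. Of the 4 cassette events of these genes in each table, 0 shared a p-value.

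The levels of the classes were also set side by side within cKO and within controls. For the 36-nt Cask exon, the level in Emx1-Cre minus that in Gad2-Cre neurons was 0.0220 in cKO and -0.257 in controls. For the 69-nt against the 36-nt Cask exon it was -0.0509 in cKO and 0.212 in controls. For the 100-nt Dlg3 cassette the gap was 0.243 in cKO and -0.0691 in controls, and against the 46-nt exon with the 51-nt exon downstream it was 0.254 in cKO and -0.107 in controls. With the 42-nt exon downstream, that pair had 0.187 in cKO and -0.0363 in controls. The 100-nt against the 42-nt Dlg3 exon had -0.0394 in cKO and -0.157 in controls, so the shared Dlg3 events did not all have the wider gap in cKO. Adam22 gaps were at most 0.0461 in size in cKO and ran from 0.0608 to 0.124 in size in controls. The gaps of single groups were tested only for the 36-nt Cask exon, between the controls, as given above.

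**Figure D4:**
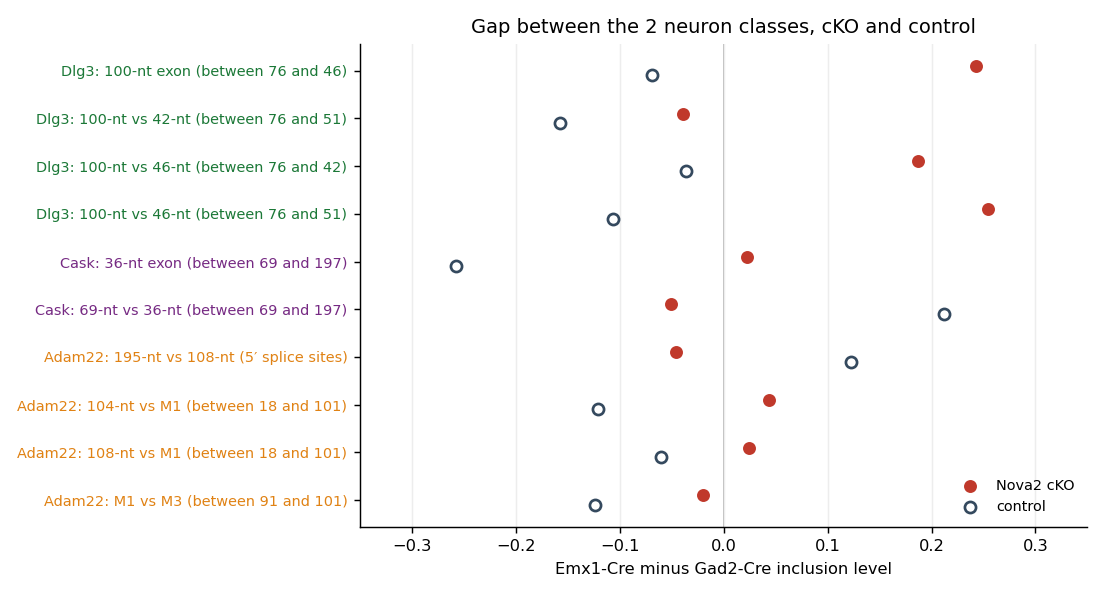
Inclusion level in Emx1-Cre minus that in Gad2-Cre neurons for the 10 events listed in both cortical tables, with filled points for cKO and open points for controls. The Cask events are far from 0 in controls (-0.257 and 0.212) and near 0 in cKO (0.0220 and -0.0509), while of the 4 Dlg3 events 3 are far from 0 in cKO (0.187 to 0.254) and the 100-nt against the 42-nt exon is far from 0 in controls (-0.157).

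By the distance between levels over the 4 cortical groups, the events most like each gene's most changed event were found among events of the same type. For the Dlg3 pair of 100-nt and 46-nt exons these were exclusive-exon events of Atp11b, Agfg1 and Cadm1, with root mean square distances of 0.0701, 0.105 and 0.125 among 190 events. The Atp11b event had levels of 0.857 in cKO and 0.0649 in controls for Emx1-Cre, and 0.537 in cKO and 0.0994 in controls for Gad2-Cre, computed from the authors' deposited tables. For the 36-nt Cask exon they were cassettes of Actl6b, Dnajb5 and Bptf, at distances of 0.0556, 0.0872 and 0.0884 among 320 events. The Actl6b cassette had 0.192 in cKO and 0.720 in controls for Emx1-Cre, and 0.221 in cKO and 0.917 in controls for Gad2-Cre, in the authors' deposited tables. For the Adam22 event that names the 104-nt form first they were events of Erbb4, Lmtk3 and Slc25a42, at 0.0994, 0.147 and 0.173.

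Other genes of the same pathways were counted by whether they had a listed event. The tables hold listed events only, so the share of all measured genes with one cannot be had from them, and the counts below have no background. An exon named below may share a splice junction with other forms, which was not checked. Its level is then not the share of that form alone. Of 17 other MAGUK genes, 4 had a listed event in Emx1-Cre neurons, 3 in Gad2-Cre neurons, 1 in the Purkinje cell layer and 0 between the controls. Dlg2, another MAGUK of glutamate synapses, had a pair of exclusive exons whose first-named form is also 100 nt long. Its level was 0.420 in cKO and 0.303 in controls for Emx1-Cre, and 0.524 in cKO and 0.285 in controls for Gad2-Cre, in the authors' deposited tables. An 82-nt cassette of Dlg4, which encodes PSD-95, fell to 0.668 in Emx1-Cre cKO, against 0.879 in controls, and to 0.608 in Gad2-Cre cKO, against 0.859 in controls, in the authors' deposited tables. A 109-nt cassette of Magi1, a scaffold of cell junctions, rose to 0.905 in Gad2-Cre cKO, against 0.614 in controls, in the authors' deposited table. The direction was up for 2 and down for 2 of the 4 MAGUK genes in Emx1-Cre neurons, and up for 2 and down for 1 in Gad2-Cre neurons, taking each gene's largest event. The median size of those largest differences was 0.17 in Emx1-Cre and 0.25 in Gad2-Cre neurons, where the median over all listed events, not only the largest of a gene, was 0.21 and 0.20.

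Of 14 genes that bind Dlg3 or act beside it in the postsynapse, 4 were listed in Emx1-Cre neurons, 1 up and 3 down, 3 in Gad2-Cre neurons, 2 up and 1 down, 2 in the Purkinje cell layer and 0 between the controls, by each gene's largest event. Kalrn, an activator of small GTPases in dendritic spines, had an alternative 3′ splice site at 0.204 in Emx1-Cre cKO and 0.519 in controls, and at 0.239 in Gad2-Cre cKO and 0.667 in controls, in the authors' deposited tables. A 91-nt cassette of Grin1, the obligatory NMDA receptor subunit, had 0.392 in Emx1-Cre cKO and 0.875 in controls, with a coverage of 26, in the authors' deposited table. A 63-nt cassette of Grin1 went the other way, higher in cKO by 0.32 in Emx1-Cre and by 0.13 in Gad2-Cre neurons in the authors' deposited tables.

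Of 16 genes that bind Cask or its complex, 3 were listed in Emx1-Cre neurons, all down, 2 in Gad2-Cre neurons, 1 up and 1 down, 2 in the Purkinje cell layer and 2 between the controls. A 27-nt cassette of Nrxn3, a neurexin, had 0.467 in Emx1-Cre cKO and 0.731 in controls, and 0.695 in Gad2-Cre cKO and 0.804 in controls, in the authors' deposited tables. Between the controls, a 24-nt cassette of Nrxn2, another neurexin, was higher in Emx1-Cre than in Gad2-Cre neurons, at 0.448 in Emx1-Cre against 0.128 in Gad2-Cre, in the authors' deposited table. Apba1 and the Lin7 genes, which encode the partners of Cask in its complex, were not listed in any of the 4 tables.

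Of 15 genes of the LGI and ADAM22 complex, 1 was listed in Emx1-Cre neurons, 0 in Gad2-Cre neurons, 2 in the Purkinje cell layer and 0 between the controls. Adam11, a relative of Adam22, had a retained intron at 0.951 in Emx1-Cre cKO and 0.324 in controls in the authors' deposited table (FDR 1.1e-11, coverage 28). The same intron was listed in the Purkinje cell layer with a difference of 0.15 in size by the authors' deposited table, whose groups carry no names, so its direction is not given here. Lgi1, the ligand of Adam22, had no listed event in any of the 4 tables.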

How the data were processed

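The authors quantified splicing by Quantas (build mm10), per the labels; the submitters' processing notes also name kallisto and edgeR, whose role here is not given. Per the file headers, the deposited values of an event are an inclusion level for each group (a fraction, pooled over 3 libraries), the difference of the levels, the authors' p-value and FDR, and 1 coverage signal for the comparison. No listed FDR was above 0.05, no difference was below 0.1 in size and no coverage was below 20, which was checked in each table, so the tables hold selected events only. The Purkinje table's 2 columns of levels name no group and were not used. Deposited interval lists gave positions, turned here to count from 1. Aligner, versions and strandedness are not given in the sources used here.

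Differences were recomputed as cKO minus control, or Emx1-Cre minus Gad2-Cre for controls. Events were matched by name and isoforms. The difference of differences used the authors' p-values as normal, two-sided, over 823 events. This step was also run on simulated differences with normal noise of the same derived spreads. That run cannot show whether the authors' p-values are those of normal tests. Second isoforms of Dlg3 pairs were read from the junction tags in event names, 1 Dlg3 and 1 Cask pair from the only other annotated exon between the outer exons. For the Dlg3 pair with the 42-nt exon between the 46-nt and 102-nt exons, the tags gave only the start of the second isoform. Exon sequences came from GENCODE M21 transcripts. The members and gene lists were chosen with earlier results of these data known. The text names all events of Dlg3, Cask and Adam22, examples from 4 pathway lists by their largest event (some listed genes are not reported here), and the 3 genes nearest in level to each. Python 3.11.15, pandas 2.3.3, numpy 2.4.6, scipy 1.17.1 and matplotlib 3.10.9 were used.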

Additional observations from a re-analysis of the deposited data

Results flagged for a closer look

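The difference between cKO and control differed between the neuron classes, by the test of the difference of differences, at 3 events. At the 36-nt Cask exon it was -0.41 in Emx1-Cre and -0.69 in Gad2-Cre neurons, which lie 0.279 apart. At the exclusive pair of the 69-nt and 36-nt Cask exons it was 0.18 in Emx1-Cre and 0.44 in Gad2-Cre neurons, a difference of -0.263. At the 100-nt Dlg3 cassette it was 0.84 in Emx1-Cre and 0.53 in Gad2-Cre neurons, which lie 0.312 apart. The 2 Cask events share the 36-nt exon and are not separate observations.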

How the results depend on the processing

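With a coverage of at least 40, 10 of the 17 events in Emx1-Cre neurons and 5 of the 13 in Gad2-Cre neurons were left. Overlapping events merged into regions gave 3 in Emx1-Cre and 3 in Gad2-Cre neurons, 1 for each gene. A difference of at least 0.2 left 16 and 11, and an FDR of at most 0.01 left 16 and 12. The number of shared events whose differences differed between the classes was 3 with the spread from the authors' FDR and 3 with coverage of at least 40 in both tables. It was 2 among cassette and tandem cassette events alone, an alternative chosen after seeing the data, in which the Cask pair could not enter. The adjusted p of the 100-nt Dlg3 cassette ran from 0.0162 to 0.0373 over these alternatives, and those of the Cask events from 0.00134 to 0.0136. No paired analysis was possible because the tables hold pooled levels and no value per library; for the same reason leaving out each replicate was not run. Motif counts in intron flanks of 200 and 100 nt were not run, since no genome sequence was used here. Coverage limits Adam22 most, where no event reached 40, and the depth of each library is unknown.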
